A study of Mus musculus with 6 samples.

Results

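The 10 genes described here encode the core of nitric oxide and cyclic GMP signalling, and were taken by gene symbol from a table of 17524 genes measured by bulk RNA sequencing of mouse trigeminal ganglion. They are 2 nitric oxide synthases (Nos1 and Nos3), 3 subunits of soluble guanylyl cyclase (Gucy1a1, Gucy1a2 and Gucy1b1), 2 cyclic GMP-dependent protein kinases (Prkg1 and Prkg2) and 3 phosphodiesterases (Pde5a, Pde2a and Pde1c). All 10 were found in the table and all 10 passed the filter on low values. The trigeminal ganglion holds the cell bodies of the sensory neurons of the face and meninges, with satellite glia, Schwann cells, fibroblasts and vessels around them. The animals of both groups carried the genotype WT, and 3 libraries came from the group treated with vehicle and 3 from the group treated with NTG. The labels give only this abbreviation, which in mouse models of migraine commonly stands for nitroglycerin, and give no dose, time after treatment, sex or age. Whether each replicate is its own animal is not said, and the p-values therefore describe the spread among these 6 libraries, which may be technical.

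Nitroglycerin is a nitric oxide donor. Nitric oxide binds the haem of soluble guanylyl cyclase, a dimer of 1 alpha and 1 beta subunit, which then makes cyclic GMP from GTP. Cyclic GMP activates the kinases PKG1 and PKG2 and cyclic nucleotide-gated channels, and phosphodiesterases break it down. In vessels this pathway relaxes smooth muscle, which is why nitric oxide donors dilate arteries and inhibitors of PDE5 prolong that effect. In embryonic sensory neurons of the mouse, PKG1 also acts downstream of the natriuretic peptide receptor NPR2 when axons branch as they enter the central nervous system. Both nitric oxide donors and PDE5 inhibitors can provoke headache in people.

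The libraries held between 18813027 and 23774244 reads, at which 3 reads correspond to 0.126 to 0.159 CPM (library-scaled reads), for counting error only. Markers of neurons were abundant in all 6 libraries, with a summed level of 16786 to 17713 CPM in vehicle and 16594 to 17201 in NTG over 10 markers, a sum made up largely of neurofilament and tubulin genes. Of these 10 markers 2 rose and 4 fell, and as many when each library's dependence on transcript GC content and length was taken out, with Rbfox3 (log2 fold change -0.53) and Pou4f1 (-0.41) lowest. The summed level of 10 endothelial markers was 219 to 262 CPM in vehicle and 228 to 234 in NTG, and that of 12 markers of vascular smooth muscle and pericytes was 253 to 278 and 268 to 275. These 3 ranges overlapped between the groups. Those of 8 satellite glia markers (5389 to 5596 CPM in vehicle, 4883 to 5061 in NTG) and of 6 fibroblast markers (1101 to 1242 and 924 to 1083) did not, and both sums were lower in NTG. Within both lists the markers went both ways. Of the satellite glia markers 2 rose and 3 fell, and with the dependence on GC content and length taken out 1 rose and 1 fell. Of the fibroblast markers 0 rose and 1 fell, Col1a2 (-0.36), while Dcn (0.18), Lum (0.35) and Pdgfra (0.21) had positive log2 fold changes and did not pass. The summed level of 8 Schwann cell markers was 13665 to 15122 CPM in vehicle and 13010 to 14470 in NTG, which overlapped. Of these 8 markers 1 rose and 3 fell, and with that dependence taken out 0 rose and 0 fell. Of 6 macrophage markers 0 rose and 1 fell, and then 0 and 0. Of 8 skeletal muscle markers, 6 fell in NTG and 0 rose, where 13.5% of all genes fell, with log2 fold changes of -1.17 to -2.75. Their summed level, 67.2 to 74.2 CPM in vehicle and 62.5 to 69.0 in NTG, was mostly that of Pvalb, which sensory neurons also express (0.04). No marker of these lists was at 0 across all libraries, and the part of these cell types in the results on the 10 genes was not tested.

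Between NTG and vehicle, 3 of the 10 genes rose and 1 fell (limma-trend on log2 of the normalised read count plus 1, adjusted p under 0.05 over 17475 genes). The genes that rose were Gucy1a2, Prkg1 and Pde1c, by a fold of between 1.26 and 1.41. The gene that fell was Nos1. Among all genes tested, 25.8% passed the same threshold, 12.3% upward and 13.5% downward, so a call is common in this comparison. The median log2 fold change of the 10 genes was 0.14, against 0.00 over all genes tested. The groups did not overlap for 5 of the 10, of which 3 were higher and 2 lower in NTG, and for 39.7% of all genes tested, 19.7% higher and 20.0% lower. In edgeR (quasi-likelihood, on reads recovered from the table) the same 4 members passed in the same directions, against 26.0% of all genes, 12.7% higher and 13.3% lower. With each library's trends over transcript GC content and length removed, 1 member rose (Pde1c) and 0 fell, against 10.4% of all genes (limma). In a bulk sample a change in the number of cells of a type and a change in RNA per cell cannot be told apart.

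The promoters of the 4 genes that passed are shown here, so that the starts of genes called in the same comparison can be read side by side. Of the 10 genes, 8 matched the RefSeq promoter table by symbol. Each window of 300 bases lies mostly upstream of a start annotated by RefSeq on GRCm38.p6 and is written 5′ to 3′ on the strand of the gene. Where the RefSeq table holds several starts, the window is the one farthest upstream (2 starts for Prkg1, 3 for Pde1c). Capitals mark the GC box GGGCGG and the CACCC box CACCC, each on either strand.
Gucy1a2 (chr9:3532099-3532398, plus strand): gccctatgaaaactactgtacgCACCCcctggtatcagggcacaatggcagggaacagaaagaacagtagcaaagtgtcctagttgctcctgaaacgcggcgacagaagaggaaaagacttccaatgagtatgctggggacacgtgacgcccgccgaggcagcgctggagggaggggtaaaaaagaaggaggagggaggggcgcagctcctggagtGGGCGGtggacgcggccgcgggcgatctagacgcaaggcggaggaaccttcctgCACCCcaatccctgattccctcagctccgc
Prkg1 (chr19:31764984-31765283, minus strand): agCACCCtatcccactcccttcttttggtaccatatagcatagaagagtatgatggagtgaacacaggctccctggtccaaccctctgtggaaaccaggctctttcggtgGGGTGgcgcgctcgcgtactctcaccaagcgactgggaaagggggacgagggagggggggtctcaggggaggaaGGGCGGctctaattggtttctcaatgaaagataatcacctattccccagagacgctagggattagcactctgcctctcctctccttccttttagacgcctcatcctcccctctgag
Pde1c (chr6:56369585-56369884, minus strand): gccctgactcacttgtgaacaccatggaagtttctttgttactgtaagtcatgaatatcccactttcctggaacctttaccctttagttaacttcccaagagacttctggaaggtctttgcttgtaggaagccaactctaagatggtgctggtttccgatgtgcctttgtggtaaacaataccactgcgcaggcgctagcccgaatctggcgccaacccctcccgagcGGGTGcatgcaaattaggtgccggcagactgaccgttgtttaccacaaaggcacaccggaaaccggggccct
Nos1 (chr5:117866589-117866888, plus strand): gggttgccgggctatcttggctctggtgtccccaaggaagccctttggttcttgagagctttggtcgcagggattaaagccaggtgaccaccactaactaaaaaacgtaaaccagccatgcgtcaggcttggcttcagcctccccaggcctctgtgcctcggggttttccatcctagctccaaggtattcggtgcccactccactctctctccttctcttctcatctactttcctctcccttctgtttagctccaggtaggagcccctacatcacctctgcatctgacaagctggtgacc
The Gucy1a2 window held 1 GC box and 2 CACCC boxes, the Prkg1 window 1 and 2, the Pde1c window 0 and 1, and the Nos1 window neither. Over the 32851 promoter windows of the table, 35.7% held a GC box and 57.5% a CACCC box, so these matches are common. No base was shared between the 2 motifs in these windows. The cyclic AMP response element TGACGTCA, whose reverse complement is the same letters and which 1.79% of all windows held, was in none of the 4. The windows of Gucy1a2 and Prkg1 held 19 and 10 CpG dinucleotides, those of Pde1c and Nos1 11 and 6, against a median of 7 over all windows. The Pde1c window lies inside the gene as the deposited table draws it, since the gene extends upstream to position 56652510. Most of the Prkg1 window also lies inside its gene, which extends upstream to position 31765268. Windows for Nos3 and Prkg2 were not used here.

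Nos1, the nitric oxide synthase of neurons, makes nitric oxide from arginine when calcium and calmodulin bind it. It stood at 1149.6, 1105 and 1278 normalised reads in vehicle replicates 1 to 3 and at 969, 1000.4 and 1010.1 in NTG replicates 1 to 3. All 3 NTG libraries were below the lowest vehicle library. The mean fell from 1178 ± 89.6 to 993 ± 21.4 normalised reads (SD, n = 3 each), a fall of 15.5% on the scale of the test (limma log2 fold change -0.24 ± 0.07 SE at an adjusted p of 0.0176). The call was lost without vehicle replicate 3 (limma log2 fold change -0.18 at an adjusted p of 0.0881), without NTG replicate 1 (-0.23, 0.0668) and without NTG replicate 2 (-0.25, 0.0572). Removal of the GC and length trends also ended it (-0.16, 0.157).

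Nos3 encodes the nitric oxide synthase of endothelium. It stood at 154, 173 and 128 normalised reads in vehicle and at 112, 116 and 122 in NTG, so the groups did not overlap, yet the lowest vehicle library was close to the highest NTG library. This difference missed the threshold (log2 fold change -0.36, 95% confidence interval -0.71 to -0.02, limma adjusted p = 0.116). Without vehicle replicate 3, the lowest of its group, it passed (limma log2 fold change -0.48 at an adjusted p of 0.0411), but not with the GC and length trends removed as well (-0.23, limma adjusted p = 0.414). Nos3 overlaps Atg9b on the opposite strand. The level of Atg9b was 0.533 times that of Nos3, at 68.0 ± 18.4 normalised reads in vehicle and 75.0 ± 13.4 in NTG (SD, n = 3 each, limma adjusted p = 0.671). The strand setting of the counting is not given, and with counting blind to strand the reads of the overlap could belong to either gene. Nos1 and Nos3 both lie on the plus strand of chromosome 5, at chr5:117866839-117958840 and chr5:24364816-24384474 on GRCm38.

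**Figure D1:**
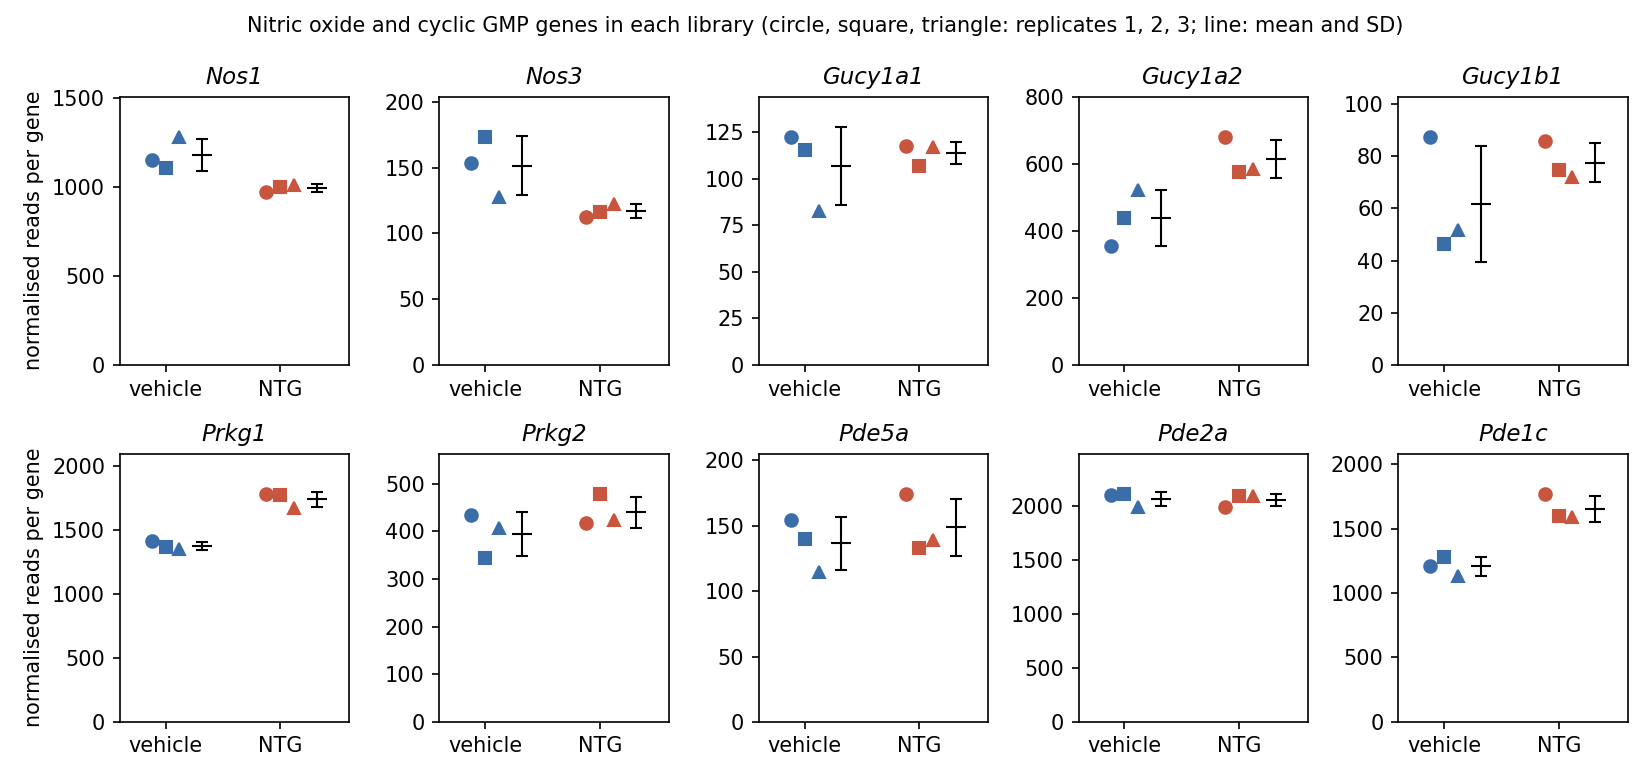
Normalised reads of each of the 10 genes (y axis, from 0) in each of the 3 vehicle (blue) and 3 NTG (red) libraries, with the mean and SD of each group as a black line and bar. Gucy1a2, Prkg1 and Pde1c have all 3 NTG points above all vehicle points, Nos1 and Nos3 have them below, and the other 5 genes overlap.

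Soluble guanylyl cyclase, the receptor for nitric oxide, was represented by 3 subunit genes. Gucy1a2 encodes the alpha-2 subunit, which in brain is known to place the enzyme at synaptic membranes. It stood at 356, 438 and 521 normalised reads in vehicle and at 679, 577 and 585 in NTG. The vehicle libraries differed widely among themselves, and the highest of them was still below the lowest NTG library. The mean rose from 439 ± 82.4 to 614 ± 56.6 (SD, n = 3 each), 1.41-fold with a 95% confidence interval of 1.19 to 1.67 (limma log2 fold change 0.50 ± 0.12 SE at an adjusted p of 0.00426). The call was lost when the GC and length trends were removed (0.20, limma adjusted p = 0.338).

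The alpha-1 and beta-1 subunits make up the dimer best known from vessels. Gucy1a1, for alpha-1, stood at 122, 115 and 82.6 normalised reads in vehicle and at 117, 107 and 117 in NTG. Vehicle replicate 3 was the lowest of the 6 libraries and the other 5 lay close together. Its log2 fold change was 0.11 (95% confidence interval -0.28 to 0.50, limma adjusted p = 0.716). It was -0.06 without vehicle replicate 3, 0.22 without vehicle replicate 1 and -0.05 with the GC and length trends removed, so its sign was not fixed. Gucy1b1, for beta-1, stood at 87.2, 46.3 and 51.8 normalised reads in vehicle and at 85.9, 74.7 and 72.0 in NTG. These values rest on 45 to 83 reads per library, and vehicle replicate 1 was as high as the highest NTG library. The difference did not pass (log2 fold change 0.37, 95% confidence interval -0.14 to 0.89, limma adjusted p = 0.286). Without vehicle replicate 1 it reached a log2 fold change of 0.65 with a limma adjusted p of 0.04996, and 0.46 (0.243) when the GC and length trends were removed as well. Gucy1b1 (chr3:82032004-82074711) and Gucy1a1 (chr3:82092427-82145946) are neighbours on the minus strand, 17.7 kb apart. Gucy1a2 lies elsewhere, at chr9:3532349-3905791 on the plus strand.

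Because the enzyme is a dimer, subunit levels were compared per transcript length, as reads per kilobase of the longest transcript scaled to library size (RPKM). In every library Gucy1a2 exceeded Gucy1a1, by a ratio of 4.25, 5.54 and 9.19 in vehicle and 8.43, 7.88 and 7.28 in NTG. The vehicle ratios spanned those of NTG. The 2 groups did not differ beyond this spread (exact two-sided permutation p = 0.4, where 0.1 is the smallest that 3 against 3 libraries can give). The summed level of the 2 alpha subunits over that of Gucy1b1 was 5.03, 11.1 and 11.1 in vehicle and 8.81, 8.68 and 9.22 in NTG, with an exact two-sided permutation p of 1. The low value of vehicle replicate 1 goes with its high Gucy1b1 level. In all 6 libraries, the summed RPKM of the alpha subunits exceeded that of Gucy1b1. This rests on the length of the longest transcript, and which transcripts were present was not tested.

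Of the cyclic GMP-dependent kinases, Prkg1 rose. It encodes PKG1, a kinase of smooth muscle and of nociceptive sensory neurons. Prkg1 stood at 1415, 1365 and 1354 normalised reads in vehicle and at 1779.9, 1776 and 1676 in NTG, a gap wider than the range within either group. The mean rose from 1378 ± 32.9 to 1744 ± 58.9 (SD, n = 3 each), 1.26-fold with a 95% confidence interval of 1.15 to 1.39 (limma log2 fold change 0.34 ± 0.06 SE at an adjusted p of 0.000534). The call held without each library in turn but was lost when the GC and length trends were removed (0.09, limma adjusted p = 0.340). Prkg1 (chr19:30564487-31765268, minus strand) spans 1201 kb, and the gene Cstf2t lies within this span on the opposite strand. Cstf2t was listed at 0.529 times the level of Prkg1, and its log2 fold change was 0.14 (limma adjusted p = 0.216).

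Prkg2 encodes PKG2, a membrane-anchored kinase known from intestine, cartilage and brain. The gene lies at chr5:98929773-99037375 on the minus strand. It stood at 434, 344 and 408 normalised reads in vehicle and at 418, 478 and 424 in NTG, and the groups overlapped. Its log2 fold change was 0.16 (95% confidence interval -0.06 to 0.38, limma adjusted p = 0.298), and 0.06 without vehicle replicate 2. Per length, Prkg1 exceeded Prkg2 in every library, by a ratio of 2.32, 2.83 and 2.37 in vehicle and 3.03, 2.65 and 2.82 in NTG. The ratio did not differ between the groups beyond its spread (exact two-sided permutation p = 0.3). A rise of Prkg1 past the threshold and a Prkg2 that missed it are therefore not shown to differ from each other.

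The phosphodiesterases remove cyclic GMP, and the 3 members are controlled in different ways. Pde1c encodes an enzyme that is stimulated by calcium and calmodulin and hydrolyses both cyclic AMP and cyclic GMP. It stood at 1206, 1277 and 1135 normalised reads in vehicle and at 1764, 1593 and 1589 in NTG, with no overlap. The mean rose from 1206 ± 71.3 to 1649 ± 99.8 (SD, n = 3 each), 1.37-fold with a 95% confidence interval of 1.24 to 1.51 (limma log2 fold change 0.45 ± 0.07 SE at an adjusted p of 0.0001). It passed without each library in turn and with the GC and length trends removed (0.22, limma adjusted p = 0.0238), but in only 3 of 6 fits that did both, where its log2 fold change went down to 0.17. Among all genes tested, 17.5% had a larger absolute log2 fold change. The gene lies at chr6:56069798-56652510 on the minus strand.

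Pde2a, whose enzyme is activated by cyclic GMP and hydrolyses both cyclic AMP and cyclic GMP, was the highest of the 10 genes. It stood at 2104, 2107 and 1988 normalised reads in vehicle and at 1994, 2088 and 2094 in NTG, and the 2 ranges nearly coincided. Its log2 fold change was -0.01, with a 95% confidence interval of -0.13 to 0.12 (limma adjusted p = 0.961). On the deposited values this interval spans a fold of 0.914 to 1.09. In the alternatives that left GC content and length alone, libraries left out included, the log2 fold change of Pde2a stayed between -0.03 and 0.02. Removal of the GC and length trends gave 0.16 (95% confidence interval 0.05 to 0.27), so the interval does not hold across that adjustment. Pde5a, whose enzyme is specific to cyclic GMP and is the target of sildenafil, stood at 155, 140.0 and 115 normalised reads in vehicle and at 174, 133 and 139 in NTG. The groups overlapped, and the log2 fold change was 0.12 (95% confidence interval -0.23 to 0.47, limma adjusted p = 0.640). It was 0.22 without vehicle replicate 1, 0.00 without vehicle replicate 3 and 0.01 without NTG replicate 1. Pde2a lies at chr7:101421691-101512829 and Pde5a at chr3:122729158-122859374, both on the plus strand.

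**Figure D2:**
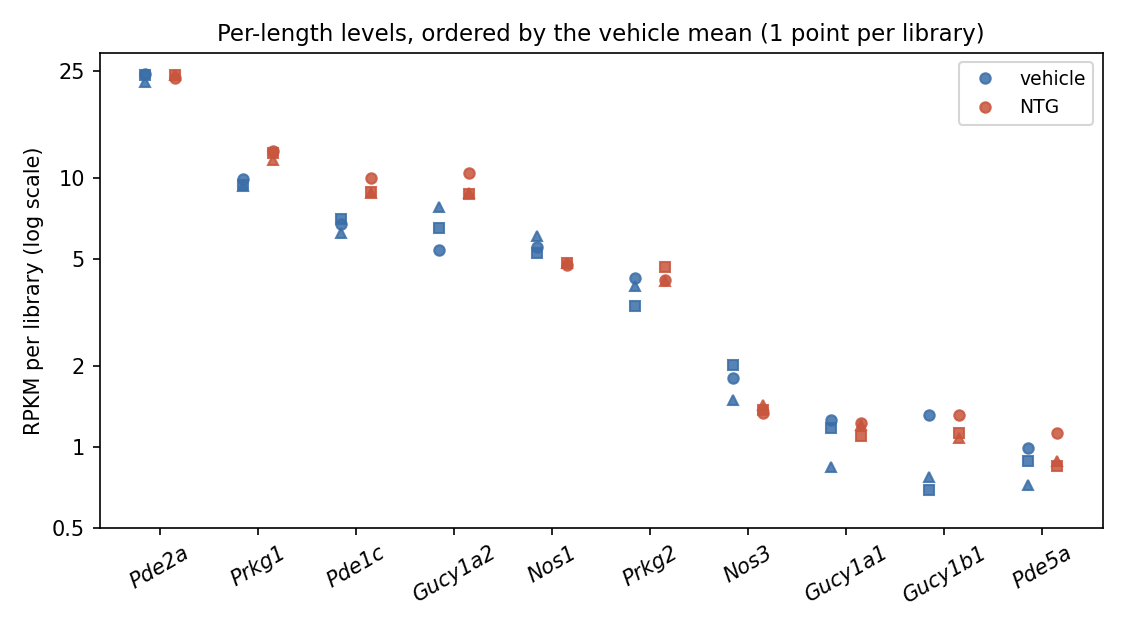
RPKM of each gene in each library (y axis, log scale), with genes ordered by their vehicle mean and 1 point per library (vehicle blue, NTG red). Pde2a lies at 22.7 RPKM or more in all 6 libraries and Gucy1a1, Gucy1b1 and Pde5a lie between 0.691 and 1.32.

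Per length, the genes fell in the same broad order in both groups. In vehicle the level of Pde2a was 23.7 ± 0.852 RPKM (SD, n = 3), followed by Prkg1 at 9.56 ± 0.297. Pde1c (6.66 ± 0.388), Gucy1a2 (6.56 ± 1.20) and Nos1 (5.63 ± 0.423) came next, and the ranges of neighbours among these 3 overlapped. Prkg2 stood at 3.85 ± 0.474 and Nos3 at 1.77 ± 0.264. Gucy1a1 (1.10 ± 0.221), Gucy1b1 (0.929 ± 0.341) and Pde5a (0.868 ± 0.134) were lowest and overlapped one another. In NTG, Gucy1a2 (9.29 ± 0.954) and Pde1c (9.20 ± 0.654) overlapped, and the range of neither overlapped that of Nos1 (4.80 ± 0.0544). Per length, Nos1 exceeded Nos3 by 3.05, 2.61 and 4.08 times in vehicle and by 3.53, 3.51 and 3.37 times in NTG, a ratio whose groups overlapped, with an exact two-sided permutation p of 0.7.

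The direction of change of the members went with the base composition of their transcripts. The 3 genes that rose had longest transcripts with a GC content of 38.0% (Gucy1a2), 41.5% (Prkg1) and 42.9% (Pde1c), the lowest of the 10. Nos1 (53.8%) and Nos3 (58.2%), the genes with lower values in NTG, were among the 3 highest, with Pde2a (55.5%). Protein-coding genes as a whole moved in the same way. When they were divided by GC content into 10 groups of equal size, the median log2 fold change was 0.31 in group 1, of lowest GC and holding Gucy1a2, where 44.1% of genes rose. It was 0.22 in group 2, which holds Prkg1, Pde1c and Gucy1b1 and where 35.8% rose. In group 8, with Nos1 and Pde2a, it was -0.13 and 20.8% of genes fell, and in group 10, with Nos3, it was -0.30 and 54.1% fell.

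**Figure D3:**
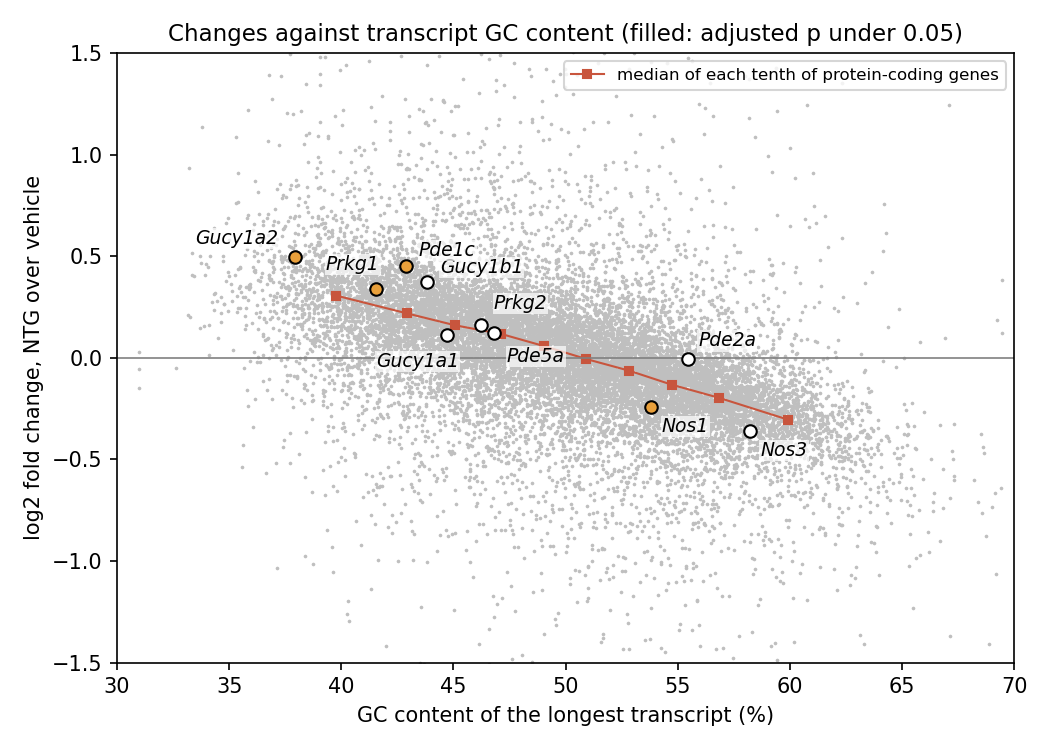
Log2 fold change, NTG over vehicle (y axis), against GC content of the longest transcript in percent (x axis) for 16278 genes in grey, of which 135 lie outside the axes, with the 10 genes as labelled circles (filled where the adjusted p is under 0.05). The red line joins the medians of 10 equal groups of protein-coding genes and runs from 0.31 at low GC to -0.30 at high GC. The filled circles of Prkg1 and Pde1c lie above it, and that of Gucy1a2 lies to the left of its first point.

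When the smooth trend over GC content and transcript length was removed from each library, 1 of the 10 genes rose and 0 fell, where 10.4% of 16278 genes passed, 4.61% upward and 5.79% downward. The gene that rose was Pde1c (limma log2 fold change 0.22 ± 0.06 SE at an adjusted p of 0.0238). It then missed the threshold without vehicle replicate 3 (0.17, 0.0917), without NTG replicate 1 (0.19, 0.121) and without NTG replicate 3 (0.22, 0.0733). For Prkg1 the log2 fold change after the adjustment was 0.09 (95% confidence interval -0.02 to 0.21, limma adjusted p = 0.340), for Gucy1a2 0.20 (-0.05 to 0.44, limma adjusted p = 0.338) and for Nos1 -0.16 (-0.30 to -0.02, limma adjusted p = 0.157). The value of Gucy1a2 then depended on single libraries, at 0.04 without vehicle replicate 1 and 0.33 without vehicle replicate 3 (limma adjusted p = 0.846 and 0.0546). Pde2a moved the other way, from -0.01 to 0.16 (95% confidence interval 0.05 to 0.27, limma adjusted p = 0.0517). It passed after the adjustment without vehicle replicate 1 (0.19, 0.0378) and with the replicate number added as a block (0.16, 0.0279). What gave the libraries their trends over GC content was not tested, and the group and the trend cannot be told apart in 3 against 3 libraries.

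**Figure D4:**
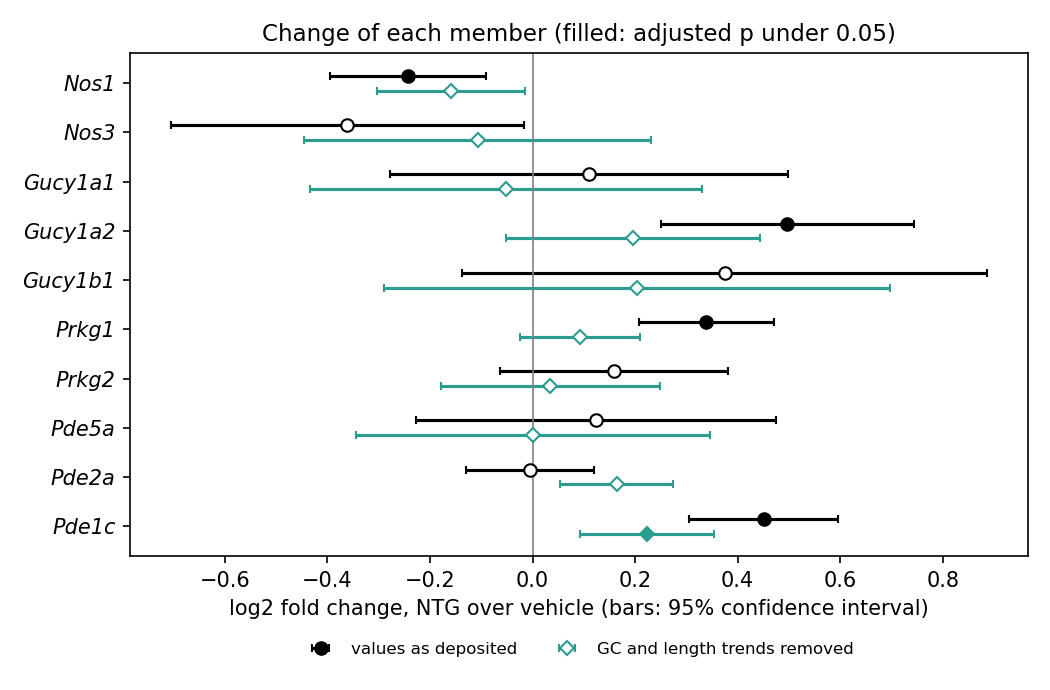
Log2 fold change, NTG over vehicle, with its 95% confidence interval for each gene (x axis), from the values as deposited (black circles) and after removal of trends over GC content and length (green diamonds), filled where the adjusted p is under 0.05. On the deposited values 4 symbols are filled, and after the removal only that of Pde1c, at 0.22.

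The 3 genes that rose also had the longest loci of the 10. Prkg1 spans 1201 kb, Pde1c 583 kb and Gucy1a2 373 kb, against 19.7 kb for Nos3 to 130.2 kb for Pde5a among the other 7. All 3 belong to the group of longest loci when protein-coding genes are divided into 10 groups by span, where 20.2% rose and 6.04% fell. Rises were as common in group 9, which holds Nos1, Prkg2, Pde5a and Pde2a (21.9% rose, 8.83% fell). In group 8, which holds Gucy1a1, 21.4% rose and 9.96% fell. Over 15067 protein-coding genes, which share the same 6 libraries, the log2 fold change and the span had a Spearman's rho of 0.25. With the trends over GC content and length taken out, rho was 0.04 over 14932 genes.

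The wider pathway was described with a list of its other genes by role, of which 54 were tested. Of these 6 rose and 6 fell, 22.2% in all, against 25.8% of all genes tested, and the median log2 fold change was 0.02. After removal of the GC and length trends 2 rose and 0 fell, 3.70% in all, against 10.4% of all genes.

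Among 23 genes that make nitric oxide or regulate its synthases, 3 rose and 3 fell, 26.1% in all, against 25.8% of all genes tested. Cav1, for caveolin-1, which binds and inhibits the endothelial synthase, rose from 1046 ± 25.2 to 1409.7 ± 111 normalised reads (SD, n = 3 each; limma log2 fold change 0.43 at an adjusted p of 0.000217). Hsp90aa1, a chaperone that assists nitric oxide synthases and soluble guanylyl cyclase, rose from 18962 ± 1284 to 23789 ± 1282 (limma log2 fold change 0.33 at an adjusted p of 0.000139). These 2 were the genes of the wider list that passed after removal of the trends, with log2 fold changes of 0.23 and 0.15 (limma adjusted p = 0.0214 and 0.0173). Hsp90ab1, a related gene of the same list and named after its values were seen, was more abundant and lower in NTG. It stood at 46709 ± 271 normalised reads in vehicle and 43509 ± 988 in NTG, and missed the threshold (limma log2 fold change -0.10 at an adjusted p of 0.0550). Cygb, for cytoglobin, a globin that can consume nitric oxide, fell from 1619 ± 66.9 to 1225 ± 6.51 (limma log2 fold change -0.40 at an adjusted p of 0.000139), and stood at -0.12 after the removal (limma adjusted p = 0.239). The other 3 that passed, named here after their values were seen, were Pts, an enzyme of tetrahydrobiopterin synthesis, which rose (0.44, limma adjusted p = 0.00794), and Nosip and Ddah2, which fell. Nosip encodes a protein that binds the synthases (-0.25, limma adjusted p = 0.00650), and Ddah2 belongs to the dimethylarginine dimethylaminohydrolase family (-0.27, limma adjusted p = 0.0280).

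Among 9 particulate guanylyl cyclases, natriuretic peptides and their receptors, 0 rose and 1 fell, 11.1% in all, against 25.8% of all genes tested. Npr2, the receptor cyclase for C-type natriuretic peptide, fell from 3339.6 ± 227 to 2778 ± 225 normalised reads (SD, n = 3 each; limma log2 fold change -0.27 at an adjusted p of 0.00538). After the removal of the trends it stood at -0.11 (limma adjusted p = 0.236). Npr3, the clearance receptor for natriuretic peptides, stood at 166 ± 13.8 and 209 ± 7.24 (limma log2 fold change 0.33 at an adjusted p of 0.0786). Gucy2e, a receptor-type guanylyl cyclase of photoreceptors, was low, with 8 to 26 reads per library, and did not pass (limma log2 fold change -0.99 at an adjusted p of 0.114).

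Among 10 effectors of cyclic GMP and substrates of its kinases, 2 rose and 2 fell. This was 40.0% in all, against 25.8% of all genes tested, and the list as a set was not tested. Vasp, an actin regulator and well-known substrate of PKG1, fell from 2230.4 ± 119 to 1759 ± 169 normalised reads (SD, n = 3 each; limma log2 fold change -0.35 at an adjusted p of 0.00126). Crip2, for a LIM-domain protein that PKG1 phosphorylates, fell from 8039.8 ± 136 to 6587 ± 499 (limma log2 fold change -0.29 at an adjusted p of 0.000664). Kcnma1, for the pore of the large-conductance calcium-activated potassium channel, rose from 712 ± 35.4 to 857 ± 76.3 (limma log2 fold change 0.26 at an adjusted p of 0.0218). Rgs2, a regulator of G-protein signalling that PKG1 phosphorylates, also rose (0.32, limma adjusted p = 0.0425) and is named after its value was seen. After the trends were removed 0 of the 10 passed (limma), against 10.4% of all genes.

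Among 10 other phosphodiesterases that hydrolyse cyclic GMP, 1 rose and 0 fell. Pde1a, a calcium- and calmodulin-stimulated relative of Pde1c, stood at 104, 114 and 99.1 normalised reads in vehicle and at 179, 145 and 139.6 in NTG. It rose with a log2 fold change of 0.54 ± 0.17 SE (limma adjusted p = 0.0212), and after the removal of the trends stood at 0.30 (limma adjusted p = 0.282). Pde9a, of high affinity for cyclic GMP (limma log2 fold change 0.84 at an adjusted p of 0.121), and Pde3a, which cyclic GMP inhibits (0.65, limma adjusted p = 0.130), did not pass and rest on 9 to 76 reads per library. The exporter genes Abcc5 and Abcc4, whose proteins can carry cyclic nucleotides out of cells, had log2 fold changes of 0.08 and -0.05 (limma adjusted p = 0.254 and 0.745).

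**Figure D5:**
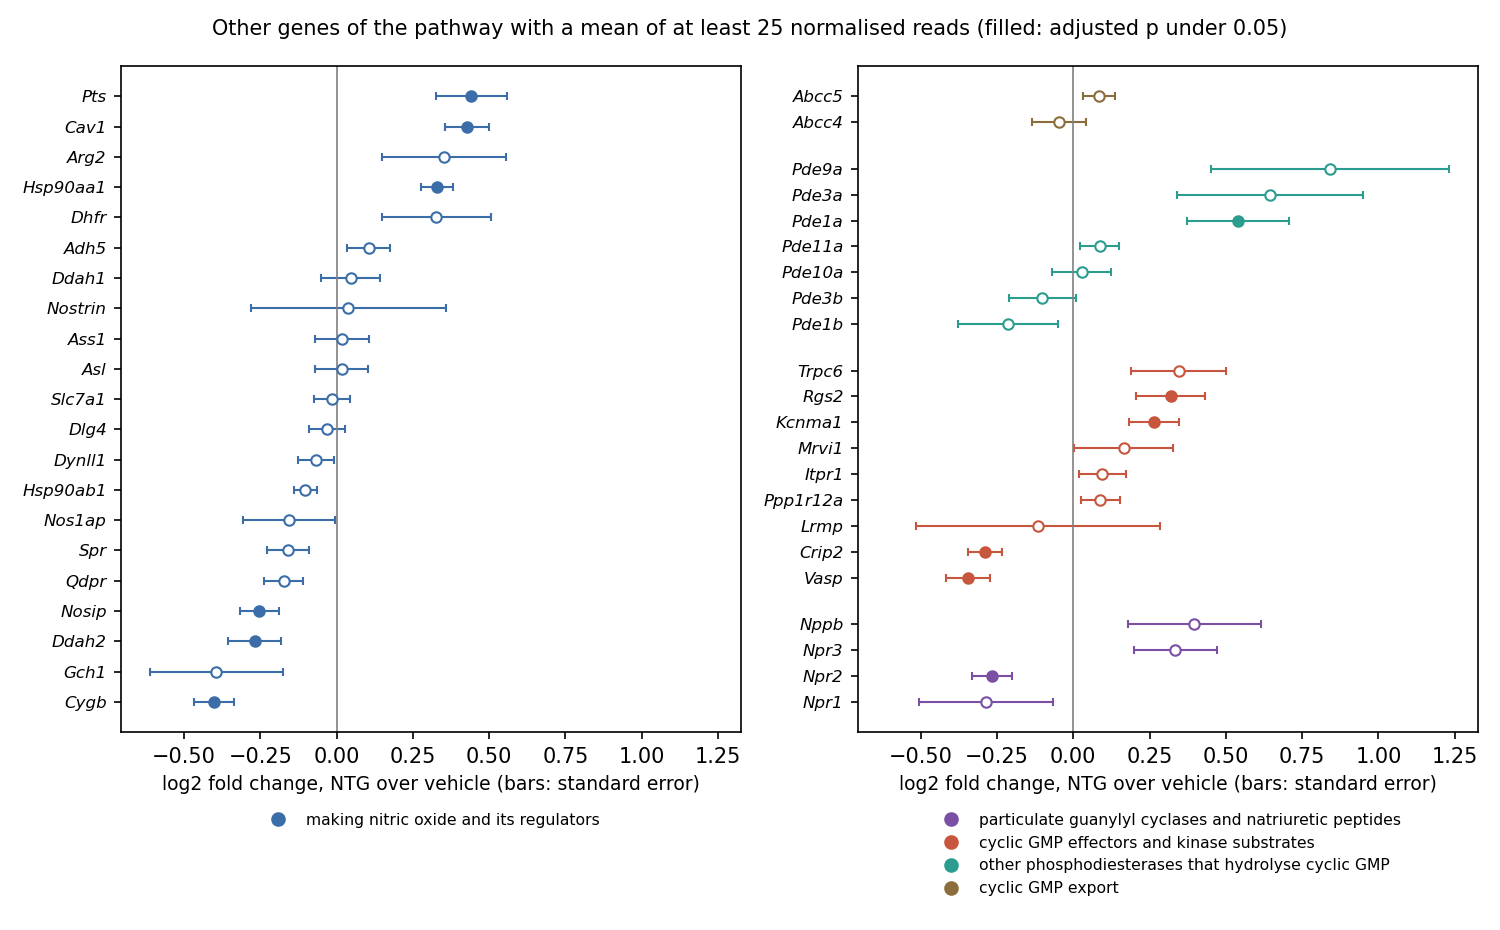
Log2 fold change, NTG over vehicle, with its standard error (x axis) for the 43 other pathway genes with a mean of at least 25 normalised reads, grouped and coloured by role and filled where the adjusted p is under 0.05. In the left panel Pts, Cav1 and Hsp90aa1 are filled on the right side of 0 and Nosip, Ddah2 and Cygb on the left, and in the right panel Pde1a, Rgs2 and Kcnma1 stand against Crip2, Vasp and Npr2.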

How the data were processed

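Strand-specific libraries were made from poly-T-enriched RNA, per the labels' protocols. The submitters' processing notes name FastQC, HISAT2 and the build GRCm38. The sources used here do not give the counting tool, its strand setting or how values were normalised. The deposited table holds a signal per gene and library: gene counts scaled by 1 factor per library. Dividing by each library's smallest value above 0, taken as 1 read, made 100% of the authors' values whole within 0.01, which recovered the reads. The 10 members and all gene lists were chosen with earlier results of these data known.

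Since the table was not of raw counts, for which edgeR was planned, limma-trend (robust) was run on log2(value + 1), a pseudocount that shrinks changes of low genes. Genes needed a value of 1 or more in 3 libraries. Tests were two-sided, with Benjamini-Hochberg adjustment over all genes and a threshold of 0.05. Named genes are the members, up to 3 genes per pathway role with the smallest p, and those said to be named after their values were seen. RPKM and GC content use the longest GENCODE M21 transcript, found for 93.2% of genes. Alternatives used edgeR, DESeq2 and limma-voom on the recovered reads, other filters, pseudocounts and scaling, a replicate block, removal of each library's trends over GC content and length (mgcv), and each library left out. Leaving libraries out after that removal was chosen after seeing the data. Libraries within a group were not duplicates: chi-square over degrees of freedom was 4.17 to 8.16 over genes with at least 25 reads in a pair of libraries. The scripts were tested on simulated data. Versions were R 4.3.3 with mgcv 1.9.3, limma 3.58.1, DESeq2 1.42.0 and edgeR 4.0.16, and Python 3.11.15 with matplotlib 3.10.9, numpy 2.4.6 and pandas 2.3.3.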

Additional observations from a re-analysis of the deposited data

How the results depend on the processing

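Of the 10 members, 4 passed under each of the 9 alternatives that kept all libraries and left base composition alone, and between 3 and 5 passed with each library left out. Removal of the GC and length trends left 1 member, 2 other pathway genes and 1692 genes in all, and the same removal with a replicate block 2, 4 and 2198. The block alone gave 4, 14 and 5254, against 4, 12 and 4512 without it, and changed no member's call. Same-numbered libraries did not deviate together (correlations of deviations from the group means 0.00, -0.03 and -0.02). Pairing by number was therefore not seen, though 3 libraries per group cannot exclude it. With libraries left out, 2946 to 4678 genes passed in all, fewest without NTG replicate 2, and 9 to 13 other pathway genes. The fold change of Pde2a turned from -0.01 to 0.16 with the trends removed and the replicate block. The log2 ratio of alpha subunits to Gucy1b1, 0.06 in all libraries, ranged from -0.32 without vehicle replicate 1 to 0.25. That of Nos1 to Nos3, 0.12, ranged from -0.0248 without vehicle replicate 2 to 0.30. The log2 ratio of Gucy1a2 to Gucy1a1 ranged from 0.14 to 0.69 and that of Prkg1 to Prkg2 from 0.13 to 0.27. The cause of these shifts was not tested. Depth limits Gucy1b1 most, which had 45 to 83 reads per library.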
